A study of Homo sapiens with 3 samples.

Results

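The stretch of the short arm of chromosome 6 from 25700000 to 33500000 (hg19) carries the largest human histone gene cluster and the major histocompatibility complex (MHC). Every called peak of Spindlin1 and of C11orf84 with its summit in this stretch was taken as a member, whatever its height. That gave 483 Spindlin1 peaks, 0.315% of the 153378 in the list on chromosomes 1 to 22 and X, and 632 C11orf84 peaks, 0.356% of 177557. Both lists come from chromatin immunoprecipitation and sequencing (ChIP-seq) in U2OS, a human osteosarcoma cell line, grown untreated. The antibody was against Spindlin1 in 1 library and against C11orf84 in the other, and a further library, labelled Input, had no antibody and is not analysed here. There are no replicates, so no p-value is given and each interval below covers counting error only. Neighbouring peaks are not independent, which makes these intervals too narrow. Peak lists hold no expression values, so the cell line could not be checked against marker genes.

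Spindlin1 is a reader of methylated histone H3, above all of lysine 4 trimethylation, a mark of active promoters, and C11orf84 is a binding partner of it. The histone cluster holds replication-dependent histone genes, which are transcribed in bursts during S phase and supply the nucleosomes of newly made DNA, and it is interleaved with transfer RNA genes. The MHC follows in the direction of the centromere. Its class I genes encode the molecules that show peptides from inside the cell on nearly every cell type. Class II genes serve antigen-presenting cells and are mostly silent elsewhere unless interferon-gamma is present. Class III lies between them and is packed with unrelated genes, among them complement factors, tumour necrosis factor and heat shock proteins.

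No hg19 gene annotation or genome sequence was used here, so no peak is placed in a gene, exon or intron and no sequence is printed. The order of genes is known from the RefSeq table of another assembly, GRCh38.p14, and is given without coordinates. From H2AC1 to H2BC17 it lists 240 genes, of which 55 are replication-dependent histone genes and 98 are transfer RNA genes. The histone genes comprise 6 linker H1 genes, 12 for H2A, 15 for H2B, 10 for H3 and 12 for H4. They stand in 5 runs with no other protein-coding gene inside. The runs from H1-1 to H1-2 (9 genes) and from H4C3 to H4C8 (23 genes) are parted only by HFE, the iron regulator mutated in haemochromatosis, among protein-coding genes. Then come 6 butyrophilin genes, from BTN3A2 to BTN1A1, before a run of 5 from H2BC11 to H2AC12 and a last run of 16 from H2BC13 to H2BC17. Further on, the table lists 49 protein-coding genes from HLA-F to MICB in class I, 62 from MICB to BTNL2 and 31 from BTNL2 to TAPBP.

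Peaks of both proteins were somewhat more numerous per Mb in the region than in the genome as a whole, but few of them were high. Spindlin1 had 61.9 peaks per Mb (exact Poisson 95% interval 56.5 to 67.7) against 52.1 over its list, 1.19 times that mean. C11orf84 had 81.0 per Mb (74.8 to 87.6) against 60.4, or 1.34 times. The rest of chromosome 6 was sparser, at 30.2 and 36.8 per Mb. Among peaks with a −log10 q of at least 10 the order turned, and the region had 0.752 and 0.812 times the mean density of the Spindlin1 and C11orf84 lists. Such peaks numbered 36 of 483 for Spindlin1 (7.45%, 5.28 to 10.2, against 11.8% of the list) and 60 of 632 for C11orf84 (9.49%, 7.32 to 12.1, against 15.7%). The rest of chromosome 6 was close to the region in this, at 7.15% and 10.8%.

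Few of the highest peaks of either list lay here. The authors' fold enrichment, the ratio of a summit to its local background, had a median of 5.64 for Spindlin1 in the region and 5.72 over the list. The C11orf84 medians were 5.50 and 5.89. The highest folds of the region, 9.75 and 11.3, ranked 2721 and 909 in their lists. Of the 10000 peaks of highest fold in each list, the region held 10 Spindlin1 and 11 C11orf84 peaks, 0.10% and 0.11%, which is below its part in all peaks. Summit depth, recovered from the deposited values as a number of fragments, had a median of 11 for Spindlin1 (range 7 to 25) and 12 for C11orf84 (range 7 to 29), the same medians as over the lists. Wide peaks were few. At least 500 bp was reached by 6.21% of Spindlin1 and 7.12% of C11orf84 members, against 10.6% and 14.3% of the lists.

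The 4 blocks of the region differed far more from each other than the region did from the genome. Class III (31500000 to 32100000) was the densest in both lists, with 183 Spindlin1 peaks per Mb (151 to 221) and 258 C11orf84 peaks per Mb (219 to 302). These are 3.52 and 4.28 times the list means. Class II (32100000 to 33200000) had 74.5 and 87.3 per Mb, and class I (29600000 to 31500000) 66.3 and 95.8. The histone cluster (26000000 to 28300000) had only 40.0 (32.3 to 49.1) and 40.9 (33.0 to 50.01), which is 0.767 and 0.677 times the means. The stretches between the blocks were as sparse for Spindlin1, at 38.4 per Mb, and held 55.3 per Mb of C11orf84. Class III was thus 4.58 times as dense as the histone cluster for Spindlin1 and 6.32 times for C11orf84, with intervals that did not overlap. Counted over peaks at the lowest background of their list alone, these ratios were 7.52 and 12.6. Whether gene number goes with this order was not tested.

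**Figure D1:**
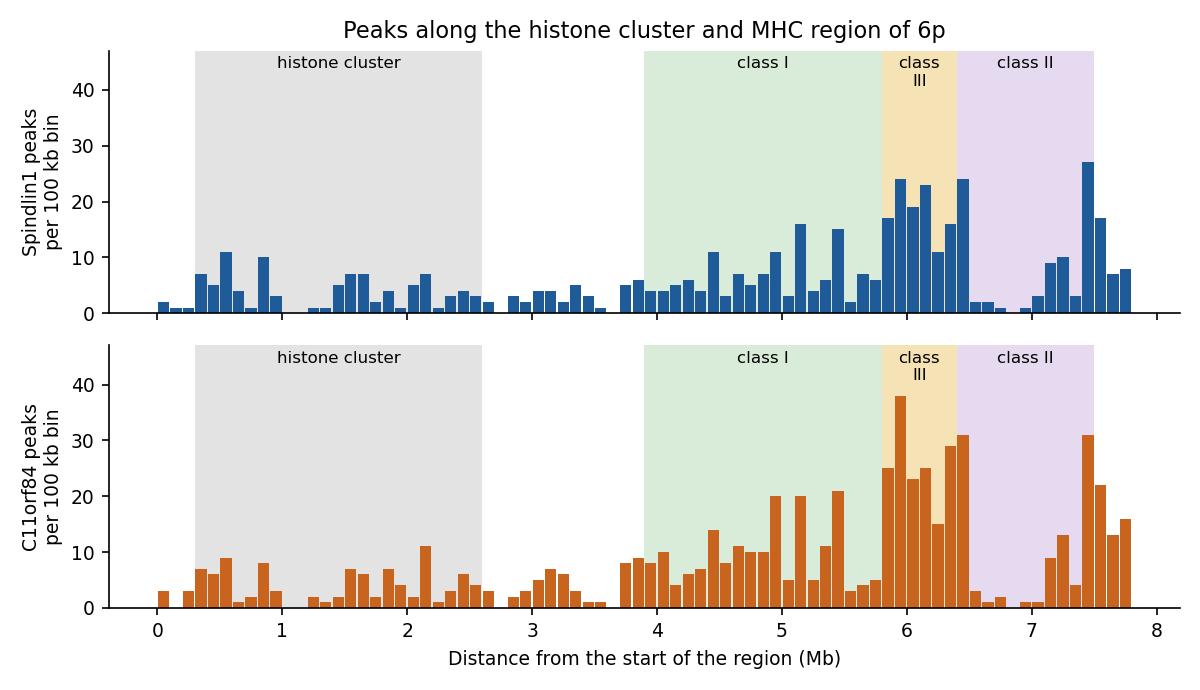
Peaks with their summit in each 100 kb bin, for Spindlin1 (top) and C11orf84 (bottom), against distance from the start of the region in Mb, with the 4 blocks shaded. Both lists are low over the histone cluster, high throughout class III, where bins reach 24 and 38 peaks, and nearly empty in the middle of class II, whose last bin holds the Spindlin1 maximum of 27.

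Bins of 100 kb differed widely. With both lists summed, the fullest bin lay in class III (31600001 to 31700000) with 24 Spindlin1 and 38 C11orf84 peaks. Next came the last bin of class II (33100001 to 33200000) with 27 and 31, the most for Spindlin1, and the first bin of class II (32100001 to 32200000) with 24 and 31. A bin of the region held a median of 4 Spindlin1 and 5.5 C11orf84 peaks. In 5 of the 78 bins neither list had a peak. Of these, 2 adjacent ones lay in the histone cluster, 2 between the histone cluster and class I, and 1 in class II (32500001 to 32600000). An empty bin is the absence of a call at this depth, not of the proteins. Just outside, the density changed sharply: the 0.5 Mb before the region held 4 and 11 peaks, and the 0.5 Mb after it 185 and 243. The right edge therefore falls inside a dense stretch that continues past it.

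The histone cluster itself had 92 Spindlin1 and 94 C11orf84 peaks, so the lists were even there. The number of C11orf84 peaks per Spindlin1 peak was 1.02, against 1.16 over the whole lists and 1.31 over the region. As a part of all its peaks, C11orf84 made up 50.5% (43.1 to 57.9), an interval that takes in the 53.7% of the whole lists. Within the cluster, peaks lay in separate groups. The first 0.6 Mb held 38 Spindlin1 and 33 C11orf84 peaks, the next 0.4 Mb only 4 and 5, the 0.5 Mb after that 22 and 18, and the last 0.8 Mb 28 and 38. These limits were drawn after the profile was seen. The longest stretch of the whole region without a peak of either protein lay here, from 26659685 to 26973456, which is 314 kb. Neighbouring summits were far apart in the cluster, with a median of 12334 bp for Spindlin1 and 14127 bp for C11orf84. Over the region the medians were 5200 and 3693 bp, and over the whole lists 1848 and 1647 bp. By this measure the peaks of the region were further apart than those of the lists in both proteins, while their number per Mb was above the list means.

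The highest C11orf84 fold of the region stood at 26156459 to 26157260 in this cluster. It was 11.3 with 26 fragments (exact Poisson 95% interval 17.0 to 38.1). A Spindlin1 peak (26156659 to 26157034) lay inside it with its summit 26 bp away, a fold of 7.47 and 16 fragments (9.14 to 25.98). The intervals of the 2 depths overlap, and a peak picked for its height in 1 list will tend to be lower in the other. The C11orf84 peak was 802 bp wide and the Spindlin1 peak 376 bp. At 27840975 to 27841290 C11orf84 had a fold of 9.33 with 18 fragments, over a Spindlin1 peak with 6.16 and 11. Spindlin1 in turn was highest at 26521941 to 26522156, with a fold of 9.75 and 18 fragments, where C11orf84 had 7.85 and 15 with summits 35 bp apart. Its next 2 were 28234929 to 28235126 (fold 8.59, 22 fragments) and 27219365 to 27219883 (8.52, 21 fragments), on a background of 1.77 and 1.67 times the lowest of the list, and both were shared with C11orf84. The C11orf84 peak at 26973457 to 26973668, with a fold of 8.35 and 16 fragments, closes the empty stretch and had no Spindlin1 peak within 14.02 kb. The widest peaks of the cluster were 857 bp for Spindlin1 (27834655 to 27835511) and 913 bp for C11orf84 (27279671 to 27280583). Each overlapped 2 peaks of the other list.

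In class I, C11orf84 peaks outnumbered Spindlin1 peaks by 182 to 126, which is 1.44 to 1. Class III, at 1.41 to 1, and the stretches between the blocks, at 1.44 to 1, were close to this. C11orf84 made up 59.1% of the class I peaks (53.4 to 64.6), an interval that takes in the 53.7% of the whole lists at its lower end. With a −log10 q of at least 10 there were 22 C11orf84 and 9 Spindlin1 peaks, or 2.44 to 1, against 1.54 over the whole lists and 1.84 over the rest of chromosome 6 at that limit. C11orf84 made up 71.0% of these peaks (52.0 to 85.8), an interval that takes in the 60.7% of the whole lists. At the same limit class II stood at 2.5 to 1, from only 5 and 2 peaks, class III at 1.67 and the histone cluster at 1.29. The first 0.5 Mb of class I, a limit again drawn from the profile, held 23 Spindlin1 and 35 C11orf84 peaks, and the remaining 1.4 Mb held 103 and 147. Class I had the highest C11orf84 fold at its very end (31497399 to 31497708), 9.82 with 19 fragments, where Spindlin1 had 5.64 and 10. At 30614953 to 30615787 the C11orf84 fold was 8.84 with 17 fragments, and the Spindlin1 peak there (30614783 to 30615708) had 7.63 with 18 and was, at 926 bp, the widest Spindlin1 peak of the block. Another C11orf84 peak, 30419423 to 30419691, had a fold of 8.45 and stood 534 bp from the nearest Spindlin1 peak without touching it. Spindlin1 was highest at 30923103 to 30923346, with a fold of 9.60 and 19 fragments over a C11orf84 peak of 7.98 and 16, their summits 8 bp apart. The next highest Spindlin1 peaks of class I, 30043696 to 30043965 (fold 8.59) and 30073942 to 30074159 (8.21), had no C11orf84 peak over them. The nearest lay at 338 bp and at 3605 bp.

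Class III held 110 Spindlin1 and 155 C11orf84 peaks in 0.6 Mb. Spindlin1 peaks covered 5.47% of its length and C11orf84 peaks 8.36%, against 1.68% and 2.39% of the region and 1.59% and 2.04% of the genome. The widest peak stood at 31747412 to 31749900, a C11orf84 peak of 2489 bp, the widest of the region in either list, with a fold of 7.36 at 14 fragments. It overlapped 4 separate Spindlin1 peaks, and the tallest of these (31747461 to 31748259) had a fold of 9.75 at 18 fragments, level with the highest Spindlin1 fold of the region. The same fold was found at 31795457 to 31795734, where C11orf84 had 8.35 at 16 fragments and the summits were 13 bp apart. A fold of 9.60 at 31763332 to 31763802 stood beside one of 8.49 for C11orf84. The 3 highest C11orf84 folds of the block were 9.003 at 32038485 to 32039011, over a Spindlin1 peak of 6.14, then 8.84 at 31733744 to 31734513 and 8.84 at 31929373 to 31929683. The Spindlin1 peak at the second of these (31733688 to 31734510, fold 7.70) was the widest of its list in the block, at 823 bp. All 6 leading peaks of class III were shared. Elsewhere in the genome 86.3% of Spindlin1 and 77.8% of C11orf84 peaks with 15 or more fragments were shared, so this is not particular to class III.

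Class II, here a block of fixed coordinates in which no gene is placed, was split into dense ends and a nearly empty middle. Its first 0.1 Mb held 24 Spindlin1 and 31 C11orf84 peaks. Its last 0.4 Mb held 49 and 57, of which only 3 and 4 lay at 33000001 to 33100000. The 0.6 Mb between (32200001 to 32800000) held 9 and 8. These limits, too, were drawn from the profile. That middle includes the peak-free stretches 32452555 to 32632766 (180 kb), the second longest of the region, and 32223116 to 32370650 (148 kb), the third. The highest C11orf84 fold of class II was 11.3 with 24 fragments (15.4 to 35.7) at 33129276 to 33129952. Spindlin1 had a fold of 6.14 with 12 fragments there, with the summit 7 bp away. Of all 275 pairs of members that overlapped each other and nothing else, this one had the largest excess of C11orf84, 12 fragments. The highest Spindlin1 fold was 8.72 with 16 fragments at 33161493 to 33161735, over a C11orf84 peak with 4.91 and 9, one of 3 pairs with the largest excess the other way, 7 fragments. Peaks at 32180582 to 32180786 (Spindlin1 fold 7.70, C11orf84 5.4) and 33144665 to 33144873 (7.68 and 4.69) came next in the Spindlin1 list. In the C11orf84 list these were 32938600 to 32938867 (C11orf84 fold 8.25, Spindlin1 4.34) and 33175994 to 33176723 (8.02 and 5.67). The widest peak of the block was the C11orf84 one at 32939800 to 32940956, 1157 bp, over 2 Spindlin1 peaks. The widest Spindlin1 peak measured 660 bp (33176039 to 33176698).

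How far the lists coincided also differed by block, and for C11orf84 it was lowest in class I. A peak counts as shared where its interval touches one from the other protein by 1 bp or more. In the region 325 of 483 Spindlin1 peaks were shared (67.3%, exact Clopper-Pearson 95% interval 62.9 to 71.5, against 69.7% of the list), and 317 of 632 C11orf84 peaks (50.2%, 46.2 to 54.1, against 57.6%). The rest of chromosome 6 stood at 63.3% and 51.0%, the latter inside the C11orf84 interval of the region. In class I 73 of 182 C11orf84 peaks were shared (40.1%, 32.9 to 47.6), and 76 of 126 Spindlin1 peaks (60.3%, 51.2 to 68.9). The C11orf84 shares of the other blocks were 60.6% in the histone cluster (50.02 to 70.6), 50.3% in class III (42.2 to 58.4) and 61.5% in class II (51.0 to 71.2). For Spindlin1 they were 64.1% (53.5 to 73.9), 72.7% (63.4 to 80.8) and 74.4% (63.6 to 83.4). Class I was singled out after these values were seen, as the lowest of the blocks.

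Since deeper peaks are shared more often in both lists, each block was set beside peaks elsewhere in the genome of the same summit depths. Elsewhere, peaks with the depths of the class I C11orf84 peaks were shared in 56.8%, above the interval of class I. In each of 4 classes of depth the class I share was the lower: 18.9% against 38.1% at 9 fragments or fewer, 36.2% against 47.4% at 10 to 11, 40.4% against 60.5% at 12 to 14 and 60.9% against 77.8% at 15 or more. At 10 to 11 fragments the class I interval (22.7 to 51.5) takes in the value elsewhere. For the class I Spindlin1 peaks the value elsewhere was 68.6%, just inside their interval. Over all depths, the values elsewhere for the other blocks lay inside their intervals. These values were 57.9% (C11orf84) and 70.6% (Spindlin1) for the histone cluster. For class III they were 55.2% and 69.0%, and for class II 54.5% and 68.1%. Between the blocks the C11orf84 share was 47.6% (37.8 to 57.6), an interval that takes in the 55.9% elsewhere. Over the whole region the C11orf84 value elsewhere was 56.1%, above its interval, and the Spindlin1 value 69.0%, inside it. Without peaks on a background of at least 2 times the lowest, the class I shares were 37.0% for C11orf84 and 58.2% for Spindlin1. No share elsewhere was computed under that filter, so these 2 values have nothing to be set beside.

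**Figure D2:**
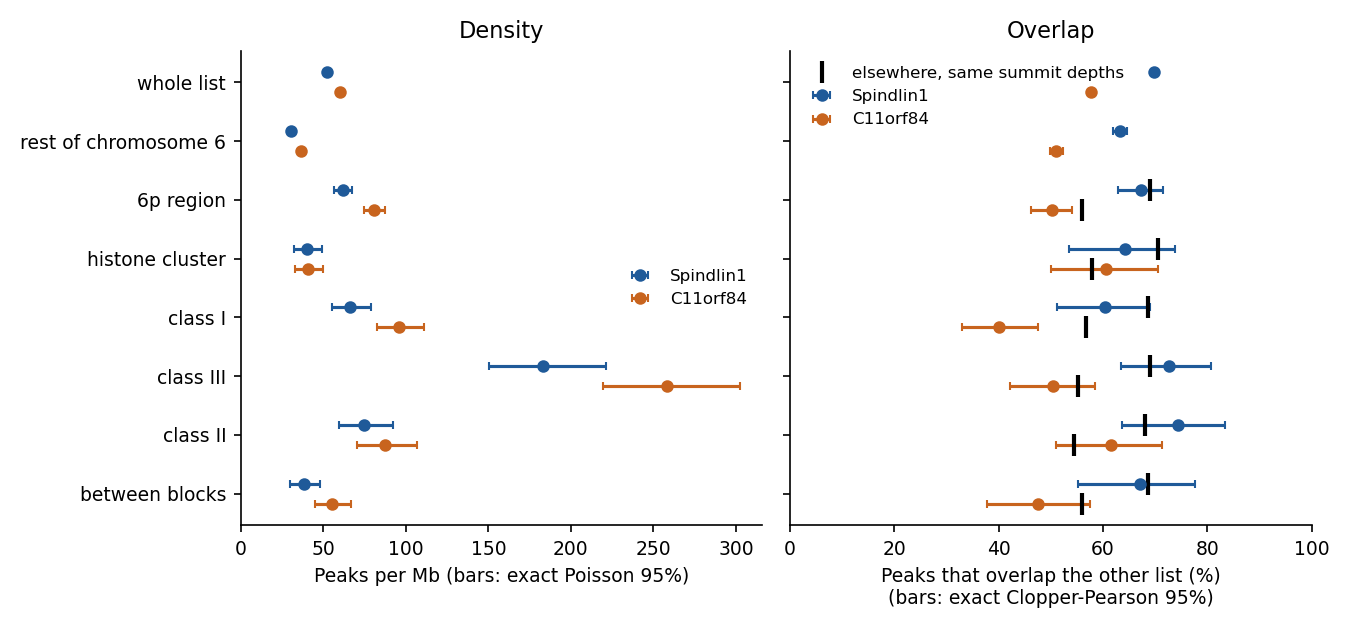
Left, peaks per Mb in the whole lists, the rest of chromosome 6, the region and its parts, with exact Poisson 95% intervals. Right, the percentage of peaks that overlap the other list, with exact Clopper-Pearson 95% intervals, and black ticks for peaks elsewhere in the genome of the same summit depths. Class III has the highest densities (183 and 258 per Mb), and the C11orf84 share of class I (40.1%) lies below its tick (56.8%).

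Merging members of both lists that overlap gave 775 sites. Of these 302 held both proteins (39.0%, 35.5 to 42.5), 158 held Spindlin1 alone (20.4%) and 315 held C11orf84 alone (40.6%, 37.2 to 44.2). Over the whole lists the same merging gave 217284 sites, of which 44.0% held both, 21.4% Spindlin1 alone and 34.6% C11orf84 alone. In class I 70 of 229 sites held both (30.6%, 24.7 to 37.0) and 109 held C11orf84 alone (47.6%, 41.0 to 54.3). The histone cluster had 54 of 124 sites with both (43.5%) and 37 with C11orf84 alone (29.8%). Class III had 73 of 180 (40.6%) with both, and class II 57 of 115 (49.6%). C11orf84 alone made up 42.8% of the sites in class III, 32.2% in class II and 43.3% between the blocks. Several Spindlin1 peaks stood in 21 sites, and several C11orf84 peaks in 15. The fullest site held 5 peaks.

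At sites with exactly 1 peak of each list, summits lay close together. The 275 such pairs had a median distance of 49 bp between summits (interquartile range 20 to 106 bp), against 46 bp over the 82199 pairs of the genome. Within 50 bp were 145 pairs (52.7%), close to the 52.8% of all pairs. Overlap itself keeps this distance short. Median distances ran from 39 bp in class I through 42 bp in the histone cluster and 48 bp in class II to 68.5 bp in class III. C11orf84 had more fragments at the summit in 142 pairs (51.6%), Spindlin1 in 91 (33.1%), and 42 were equal. In the genome C11orf84 was the deeper in 53.8%, and its library was the deeper by 1.04 times. The median difference was 1 fragment, and the extremes were 7 more for Spindlin1 and 12 more for C11orf84. Depths in the 2 lists had a Spearman correlation of 0.57 over the 275 pairs and 0.53 over all pairs. By block it was 0.64 over the 48 pairs of the histone cluster, 0.58 over 63 in class I, 0.76 over 66 in class III and 0.23 over 52 in class II. This is a description, since pairs share base composition and local background. The C11orf84 peak was the wider in 178 pairs (64.7%), close to the 64.2% of all pairs.

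**Figure D3:**
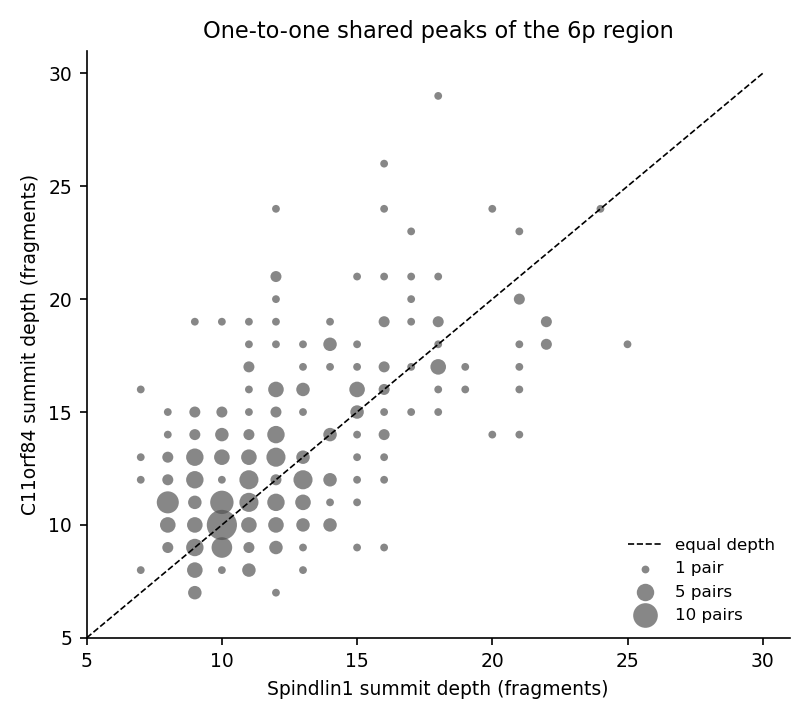
Summit depth in fragments of Spindlin1 (horizontal) and C11orf84 (vertical) at the 275 sites with exactly 1 peak of each list. The area of a circle gives the number of pairs, and the dashed line marks equal depth. In 184 pairs both depths lie between 8 and 15 fragments, and 142 pairs are above the line and 91 below it.

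Peaks far from any peak of the other protein were most frequent, among the blocks, in the histone cluster and in class I. No C11orf84 peak within 5 kb was the case for 43 of 483 Spindlin1 peaks (8.90%, 6.52 to 11.8, against 8.36% of the list). No Spindlin1 peak within 5 kb was the case for 92 of 632 C11orf84 peaks (14.6%, 11.9 to 17.5, against 10.9%). The histone cluster held 14 and 22 of them (15.2% and 23.4% of its peaks), class I 13 and 36 (10.3% and 19.8%), class III 2 and 8, and class II 4 and 4. In the rest of chromosome 6 such peaks made up 14.2% of Spindlin1 and 17.8% of C11orf84 peaks, more than in the region for both lists. A neighbour within 5 kb is more likely among dense peaks wherever it stands. The highest of them for Spindlin1 was 29893882 to 29894211 in class I, with a fold of 7.70 at 14 fragments and 30.1 kb to the nearest C11orf84 peak. It was followed by 32222895 to 32223115 in class II (7.51) and 27235750 to 27235933 in the histone cluster (6.68). For C11orf84 the highest was the peak at 26973457 already described. Then came 29545142 to 29545339, just before class I, and 29709893 to 29710161 inside it, both with a fold of 7.98 at 16 fragments.

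The background under the peaks was a little higher than in the genome in both lists. Which control it was taken from is not given. If both lists used the same control, their backgrounds would be alike by construction, so likeness between them is not read as a result. Background is given as a multiple of the lowest value of each list, which is 0.949 fragments for Spindlin1 and 1.04 for C11orf84. A background of at least 2 times that value was found at 60 Spindlin1 members (12.4%, 9.62 to 15.7, against 9.07% of the list) and at 70 C11orf84 members (11.1%, 8.74 to 13.8, against 9.19%). The median was 1.14 times for Spindlin1 and 1.09 for C11orf84, against 1.05 and 1.01. In the histone cluster only 26 of 92 Spindlin1 peaks (19.4% to 38.6%) and 29.8% of C11orf84 peaks (20.8 to 40.1) stood at the lowest background, against 48.2% and 49.3% of the lists. In class III it was 46.4% and 59.4%. The highest background of the region lay at the same place in both lists, in class I at 30655106 to 30655334 for Spindlin1 (5.14 times) and 30655149 to 30655769 for C11orf84 (4.91 times). With a shared control these would be 1 measurement read in both lists, which was not tested. The folds there were only 3.75 and 4.27, while the summits reached 21 and 25 fragments. Background is known only at called peaks, and by these no long stretch of the region was raised as a whole. The highest median of a 100 kb bin was 2.69 times, in the histone cluster (27400001 to 27500000), from 4 peaks. Next was 2.07 times, also in the histone cluster (28100001 to 28200000), from 10 peaks. The part of background in the differences between blocks was measured only by the counts given above without raised peaks or at the lowest background.

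**Figure D4:**
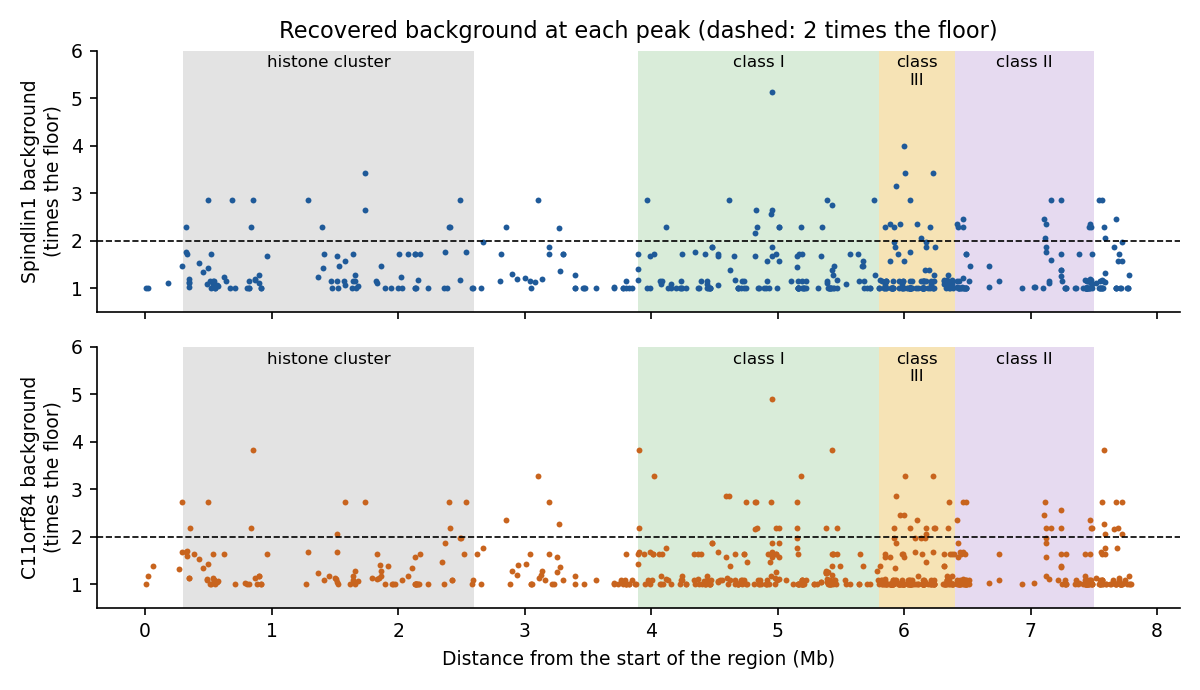
Recovered background at each Spindlin1 (top) and C11orf84 (bottom) member, in multiples of the lowest value of its list, against distance from the start of the region in Mb. Points lie mainly between 1 and 2, with isolated higher ones in all blocks and the highest (5.14 and 4.91) in class I.

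Seen in windows of 1 Mb, the region ran from ordinary to dense. The window at 26 to 27 Mb held 42 Spindlin1 and 38 C11orf84 peaks and that at 27 to 28 Mb 40 and 43, where the median of the 2805 windows with a peak of either list was 17 and 18. The window at 31 to 32 Mb held 130 and 170 and ranked 347 and 307 among all windows. The histone cluster was thus below the mean density of the genome and above the median window.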

How the data were processed

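The submitters' processing notes name Bowtie 1.2.2 and hg19. What called the peaks, at which threshold and against which control is not given in the sources used here. The authors' deposited lists give, for each peak, the interval and summit, a fold (a ratio to local background), a −log10 p-value, a −log10 q-value and a score, not used, equal to 10 times the −log10 q-value cut to a whole number. Each list belongs to 1 library. Total read numbers are unknown.

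Summit depth k and background λ were recovered from fold = (k + 1)/(λ + 1) and p, the Poisson chance that a count exceeds k, with a largest error of 0.000174 in −log10 p. These formulas were assumed, since the peak caller is not known here. On simulated data the depth of all 10000 peaks and the overlap status of all 10000 intervals were returned. The simulated folds and p-values were made with the same formulas, so their recovery checks the calculation only. The lowest λ of a list, within 0.1%, is its floor. The floors and the shortest peaks (172 and 180 bp) put the C11orf84 library at 1.04 times the depth of the Spindlin1 library. Densities elsewhere use the 2942 Mb from first to last peak of chromosomes 1 to 22 and X. Positions are counted from 1. Intervals are exact, at 95%, for counting error. Values elsewhere at the same summit depth weight the shares outside the region by the depths of a block.

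Named peaks are, in each list, the 5 of highest fold in the region, the 3 of highest fold and the widest in each block, and the 3 of highest fold beyond 5 kb of the other list. Fullest and empty bins and the longest gap were also to be named. Promoters and gene lists, also planned, were not analysed, for want of an hg19 annotation. The region, blocks and rules were chosen with earlier results of these data known. Pairs of extreme difference, highest backgrounds and stretches inside blocks were chosen after their values were seen. Tables were made in Python 3.11.15 with pandas 2.3.3, NumPy 2.4.6 and SciPy 1.17.1, and figures with matplotlib 3.10.9.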

Additional observations from a re-analysis of the deposited data

How the results depend on the processing

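Held to a −log10 q of at least 10, the region kept 36 Spindlin1 and 60 C11orf84 peaks, and its density fell from 1.19 and 1.34 times the list means to 0.752 and 0.812. Among the 10000 peaks of highest −log10 q it was 0.490 and 0.528. The excess thus turned into a deficit in both lists, though no interval was computed at either limit. Against the rest of chromosome 6 the multiple was 2.05 and 2.20. With edges widened by 200 kb it was 1.48 for C11orf84, and with edges drawn in it was 1.21 for Spindlin1 and 1.34 for C11orf84. The Spindlin1 share of 67.3% became 47.2% with 50% of both intervals in common (47.5% of the whole list), 55.7% with summits at most 200 bp apart (55.1%), 44.4% where both lists were held to a −log10 q of 10 or more (49.03%), and 60.5% with lists of equal size (64.2%). The C11orf84 share of 50.2% became 36.1% (41.1% of the whole list), 42.4% (47.5%) and 25% (30.9%) under the first 3, which are stricter by construction. Shared C11orf84 peaks had a median fold of 5.77. Alternatives for blocks were added after seeing the data. Class III over the histone cluster was 7.52 and 12.6 at the floor, where the cause was not tested. The class I Spindlin1 share was 38.1% with 50% in common (47.5% of the whole list) and 49.2% by summits (55.1%). The class I C11orf84 share was 26.4% with 50% in common (41.1% of the whole list) and 34.1% by summits (47.5%). C11orf84 peaks per Spindlin1 peak in class I came to 2.44 among peaks whose −log10 q reached 10. In all, 21 values with an alternative setting stayed within their limits, 19 moved and 4 reversed. No alternative was run for shares of the other blocks. Median summits of 11 and 12 fragments limit the depth of single peaks, and with 1 library an antibody no spread between libraries is known. No paired analysis was possible because each antibody has 1 library.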
